A study of Homo sapiens with 64 samples.

Results

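DLD1 is a human colorectal cancer cell line of the CCS3 subtype, and the comparison described here set its label-retaining cells against its cycling cells. The cells were stained with CFSE, a dye that each division dilutes, grown as spheroids in non-adherent serum-free culture with bFGF and EGF, and sorted at day 6. LRCs were the cells that had kept the dye, and non-LRCs were the bulk CFSE population that had diluted it. The members are 4 LRC and 4 non-LRC TruSeq libraries made from total RNA, chosen by cell line and sorted population, and they are 8 of the 64 libraries of the series. The sorted populations of 5 other colorectal lines (HT55, SW948, RKO, SW48 and HCT15) gave 40 further libraries. The remaining 16 are labelled unsorted DLD1, and they were taken at day 1 or at day 5 after CFSE or after its solvent DMSO, with 4 libraries in each of the 4 groups. Day 5 is the time in the labels, and the methods give day 6 for it. No drug was given to any sorted group, so LRCs and non-LRCs share the stain, the medium and the sort. The line is a single established culture, so the spread between replicates is within DLD1 and not between tumours. The study's methods call the 4 replicates biological, and the labels do not say whether each was a separate culture.

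Label retention marks cells that have divided little since staining, whatever state they are in. Cells that leave the cycle stop making the helicase that licenses replication origins, the enzymes of deoxynucleotide supply and the kinases and motors of mitosis. Quiescent cells are also known for slower ribosome production and for higher lysosomal activity. A sort on dye selects by division history, and a bulk library of sorted cells averages over all cells in the gate. Fewer cells of a type and less RNA per cell therefore cannot be told apart in these values.

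The 8 libraries held between 12237225 and 15078304 reads on genes. Reads outside genes made up 7.92% ± 0.6 (SD, n = 4) in non-LRCs and 8.72% ± 1.41 (n = 4) in LRCs, a difference that did not pass an exact two-sided permutation test (p = 0.4). The mitochondrial (exact p = 0.714) and ribosomal protein shares (exact p = 0.343) did not pass either. The number of genes at 1 CPM (reads per 1000000 reads on genes) or more was 12810 to 12913 in non-LRCs and 13050 to 13102 in LRCs, a difference of 212 genes and the smallest exact p that 4 against 4 can give (p = 0.0286, and 0.143 after adjustment over the 5 library measures). Libraries of replicates 1 and 2 stood apart from those of replicates 3 and 4 in both populations: the first principal component (34.5% of variance) separated LRCs from non-LRCs and the second (30.9%) separated these pairs of replicates. All 12 colonic epithelial markers were detected, and their summed level was 7220 to 8470 CPM in non-LRCs and 8280 to 9030 CPM in LRCs. Fibroblast markers summed to at most 9.74 CPM and endothelial markers to at most 3.71 CPM in any library, with CDH5 and KDR at 0. Immune markers summed to 1.76 to 6.26 CPM in non-LRCs and 4.83 to 16.1 CPM in LRCs, nearly all of it CD68, a lysosomal protein, with CD3E and MS4A1 at 0.

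The control libraries labelled unsorted DLD1 did not look like the sorted DLD1 libraries. Over the 2000 genes that varied most between the groups' means, the 16 unsorted libraries correlated with the sorted HCT15 libraries at r between 0.9 and 0.989, and with the sorted DLD1 libraries at r between 0.712 and 0.805. The 8 sorted DLD1 libraries correlated with each other's group means at 0.988 to 0.993 and with HCT15 at 0.793 to 0.803. Each r is with the nearer of the line's LRC and non-LRC means, the library itself left out. There were 28 genes at a mean of 10 CPM or more in sorted DLD1 and under 0.5 CPM in unsorted DLD1, and 19 the other way. Between unsorted DLD1 and sorted HCT15 the count was 0 in each direction. These correlations are across genes, which are not independent replicates. DLD1 and HCT15 are known to derive from the same patient, and which of the labels is at odds with its cells was not tested. The comparison of LRCs with non-LRCs uses none of these control libraries.

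LRCs and non-LRCs of DLD1 differed in many genes by small amounts. Of 13592 genes tested, edgeR's quasi-likelihood test called 906 higher in LRCs (6.67% of all) and 1072 lower (7.89%) at a Benjamini-Hochberg adjusted p under 0.05. The median absolute log2 fold change of the called genes was 0.34, and 107 of them changed by 1 or more on the log2 scale, 103 higher and 4 lower. With the replicate number as a block the calls rose to 2330 higher (17.1%) and 2261 lower (16.6%), and all 1978 genes called without the block were among them. The 4 LRC values lay wholly above or below the 4 non-LRC values in 2814 genes (20.7%), 1850 of which were called, and 1971 of the called genes moved the same way in all 4 same-numbered pairs. Leaving out non-LRC replicate 1 took the calls to 963, and leaving out LRC replicate 4 took them to 1314. Within replicates 1 and 2 alone 1535 genes were called, and within replicates 3 and 4 alone 3091. With replicates 1 and 2 summed, and 3 and 4 summed, 0 genes were called and 2316 had an unadjusted p under 0.05. These settings were chosen after seeing the data. Libraries within such a pair resembled each other, and whether they are independent was not tested, so counts within a pair may be too high. Of the 1360 genes with the lowest levels 70 were called higher and 8 lower, and of the 1360 with the highest levels 115 were higher and 207 lower. Genes at the lowest levels can reach 10 counts in 4 libraries through the LRCs alone. The counts at low levels, and the 103 against 4, therefore do not measure a tendency upward. With 10 counts required in every library 902 genes were called higher and 1034 lower.

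**Figure D1:**
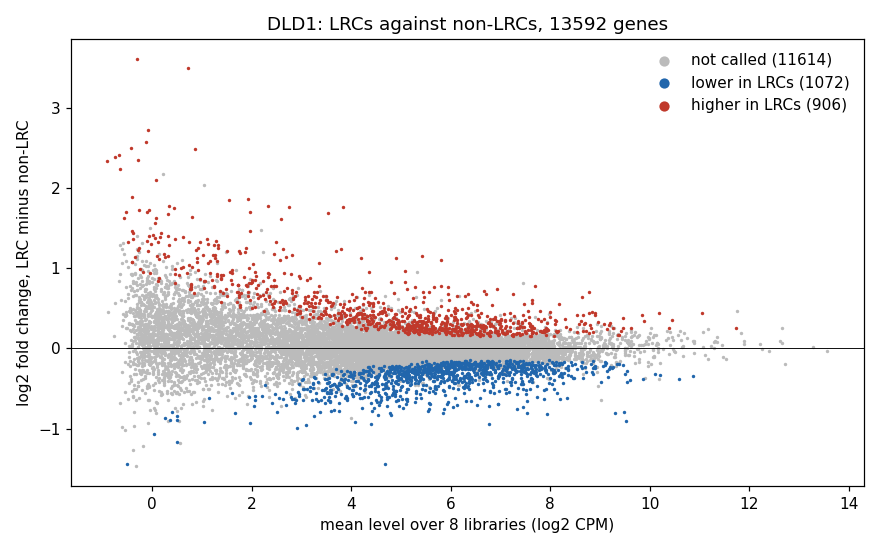
Each point is a gene, with its mean log2 CPM over the 8 libraries on the x axis and the log2 fold change of LRCs against non-LRCs on the y axis; coloured points are the 906 genes called higher and the 1072 called lower. Called changes at high levels are small, and those beyond 1 on the log2 scale lie almost all above 0 and at low to middling levels. At the lowest levels a gene can pass the filter on low counts through the LRCs alone.

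Most tested genes of DNA replication were called lower in LRCs. The counts of each gene list stand beside 6.67% of all genes called higher and 7.89% lower, or 17.1% and 16.6% with the replicate block. Among 22 tested genes that license and fire replication origins, 16 were called lower and none higher, with a median log2 fold change of -0.51 against 0.02 over all genes tested. Among 33 genes of the replication fork and nucleotide supply, 27 were called lower and none higher, with a median of -0.43. Every one of the 22 and of the 33 had a fitted value below 0. The medians were -0.35 and -0.30 within replicates 1 and 2 and -0.69 and -0.63 within replicates 3 and 4. The licensing count fell to 9 without non-LRC replicate 1 or LRC replicate 3 and to 10 without LRC replicate 4, and the fork count fell to 13 without non-LRC replicate 1.

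MCM6 encodes a subunit of the replicative helicase and lies on chromosome 2 (GRCh37, 136597196 to 136634013). Its level was 178, 155, 161 and 173 CPM in non-LRC replicates 1 to 4 and 131, 122, 99.4 and 103 CPM in LRC replicates 1 to 4. The groups did not overlap, and the log2 fold change was -0.55 (SE 0.087, adjusted p = 0.00328). TYMS, the thymidylate synthase that makes dTMP, was at 149, 131, 139 and 144 CPM in non-LRCs and 106, 83, 75.3 and 77.8 CPM in LRCs, again without overlap (log2 fold change -0.72, SE 0.095, adjusted p = 0.00157). In both genes LRC replicates 3 and 4 were the lowest libraries, while the non-LRC values of the 4 replicates were close together. Other genes of the same lists were also called lower. PCNA, the sliding clamp of the fork, fell by 0.57 on the log2 scale, and RRM2, the small subunit of ribonucleotide reductase, by 0.69. GINS2, another part of the replicative helicase, went from 21.4 to 26.2 CPM in non-LRCs to 11.8 to 17.4 CPM in LRCs (log2 fold change -0.74), and CDC7, the kinase that fires licensed origins, fell by 0.76.

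Regulators upstream of replication were called in part. Of 17 G1/S cyclins and E2F factors, 7 were called lower and none higher (median -0.32), and 4 remained in number without non-LRC replicate 1. The replicate block gave 12 lower. SKP2, the ubiquitin ligase subunit that targets p27, fell by 0.64 on the log2 scale and the phosphatase CDC25A by 0.57. CDCA7, a MYC- and E2F-responsive gene, was at 34.1 to 37.9 CPM in non-LRCs and 18.6 to 23.9 CPM in LRCs (log2 fold change -0.81, adjusted p = 0.00059). The S-phase cyclin CCNE1 did not pass the test, with a log2 fold change of -0.05 (SE 0.11, adjusted p = 0.82), and its LRC values of 12.7 to 18.5 CPM lay across its non-LRC values of 14.9 to 17.7 CPM. E2F1 (-0.36, adjusted p = 0.186) and CDK1 (-0.29, adjusted p = 0.156) did not pass without the replicate block and passed with it, at adjusted p = 0.00174 and 0.00224. In CDK1 the LRC values of replicates 1 to 4 were 54.7, 47, 32.6 and 38.3 CPM beside non-LRC values of 50.1 to 54.8 CPM, so LRC replicate 1 was level with the non-LRCs.

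Most tested genes of mitosis were called lower as well. Of 26 regulators of mitotic entry and exit, 16 were called lower and 1 higher, with a median of -0.50. Of 32 genes of the kinetochore, spindle and cytokinesis, 20 were called lower and none higher, with a median of -0.49, and all 32 were called lower with the replicate block. Without non-LRC replicate 1 the lower counts were 9 and 12. The single higher gene was FZR1, an activator of the anaphase-promoting complex in G1, and it was no longer called without LRC replicate 4.

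CDC20, which activates the anaphase-promoting complex in mitosis, was at 86.2, 89.2, 78.3 and 87.2 CPM in non-LRCs and 60.8, 56.5, 43.1 and 45.4 CPM in LRCs. All LRC values were below all non-LRC values (log2 fold change -0.73, SE 0.10, adjusted p = 0.00186). CCNB1, the mitotic cyclin B1, fell by 0.70 on the log2 scale (adjusted p = 0.00228), from 85.5 to 93.1 CPM to 46.3 to 67.4 CPM. MKI67, whose protein Ki-67 is the common marker of proliferation, was at 367, 325, 371 and 399 CPM in non-LRCs and 284, 245, 204 and 213 CPM in LRCs. It therefore remained abundant in the LRC libraries, at a log2 fold change of -0.63 (adjusted p = 0.00354). Among spindle and kinetochore genes, CENPH fell by 0.94 on the log2 scale, the kinesin KIF20A by 0.69 and the kinetochore protein CENPF by 0.54. The kinesin KIF4A, which organises the central spindle, fell by 0.63.

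The sequences around the starts of replication and mitosis genes carry different short motifs, shown here because the lists differ in them. Motifs were searched on both strands in the 250 bases before each gene's start in RefSeq (GRCh38.p14) and a shorter stretch after it. The shares below count matches on either side of the start. The motifs were TTTNNCGC, the letters of an E2F-type site, TTTGAA, the cell cycle homology region (CHR), and CCAAT. The E2F-type letters stood in 11 of 18 licensing genes with a sequence (61.1%) and 12 of 29 fork genes (41.4%), beside 2 of 19 mitotic regulators (10.5%), 3 of 29 kinetochore and spindle genes (10.3%) and 10.6% of the 10215 sequences of tested genes. The CHR letters stood in 12 of 19 mitotic regulators (63.2%) and 24 of 29 kinetochore and spindle genes (82.8%), beside 5.56% of licensing genes, 3.45% of fork genes and 9.74% of tested genes. CCAAT was in 61.1%, 51.7%, 78.9% and 79.3% of the 4 lists in that order and in 37% of tested genes. Over all 27305 sequences of the table the shares were 6.9% for TTTNNCGC, 15.4% for TTTGAA and 35.7% for CCAAT. A match is a match of letters and not a measured site. Below are the genes with the smallest p in each list among those holding the list's motif, written 5′ to 3′ toward the start of the gene with the motifs in capitals. They are MCM6 (chr2:135876444-135876693, minus strand), TYMS (chr18:657403-657652, plus strand), CDC20 (chr1:43358731-43358980, plus strand) and KIF4A (chrX:70289854-70290103, plus strand).
MCM6: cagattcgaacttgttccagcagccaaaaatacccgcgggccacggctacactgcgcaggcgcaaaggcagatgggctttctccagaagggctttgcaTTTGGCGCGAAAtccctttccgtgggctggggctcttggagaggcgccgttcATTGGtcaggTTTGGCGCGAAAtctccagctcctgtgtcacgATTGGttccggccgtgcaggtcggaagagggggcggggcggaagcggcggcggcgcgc
TYMS: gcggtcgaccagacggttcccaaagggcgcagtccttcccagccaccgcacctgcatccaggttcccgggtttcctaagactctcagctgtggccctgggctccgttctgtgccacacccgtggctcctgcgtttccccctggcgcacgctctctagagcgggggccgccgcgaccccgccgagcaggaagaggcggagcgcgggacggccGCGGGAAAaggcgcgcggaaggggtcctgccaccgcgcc
CDC20: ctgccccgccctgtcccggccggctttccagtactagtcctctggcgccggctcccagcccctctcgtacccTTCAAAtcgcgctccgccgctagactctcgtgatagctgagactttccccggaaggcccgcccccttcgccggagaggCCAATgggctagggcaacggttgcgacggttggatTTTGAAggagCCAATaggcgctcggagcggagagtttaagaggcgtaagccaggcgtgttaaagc
KIF4A: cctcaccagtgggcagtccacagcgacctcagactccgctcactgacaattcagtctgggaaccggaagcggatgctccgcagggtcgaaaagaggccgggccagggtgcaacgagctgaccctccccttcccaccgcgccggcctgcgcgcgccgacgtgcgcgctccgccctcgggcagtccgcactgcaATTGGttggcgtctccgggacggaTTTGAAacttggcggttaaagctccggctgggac
In MCM6 the capitals mark a pair of E2F-type stretches, each of which matches on both strands, and a pair of CCAAT boxes on the minus strand of the printed sequence. TYMS holds a single E2F-type match. CDC20 holds 2 CHR and 2 CCAAT matches, and KIF4A 1 of each.

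**Figure D2:**
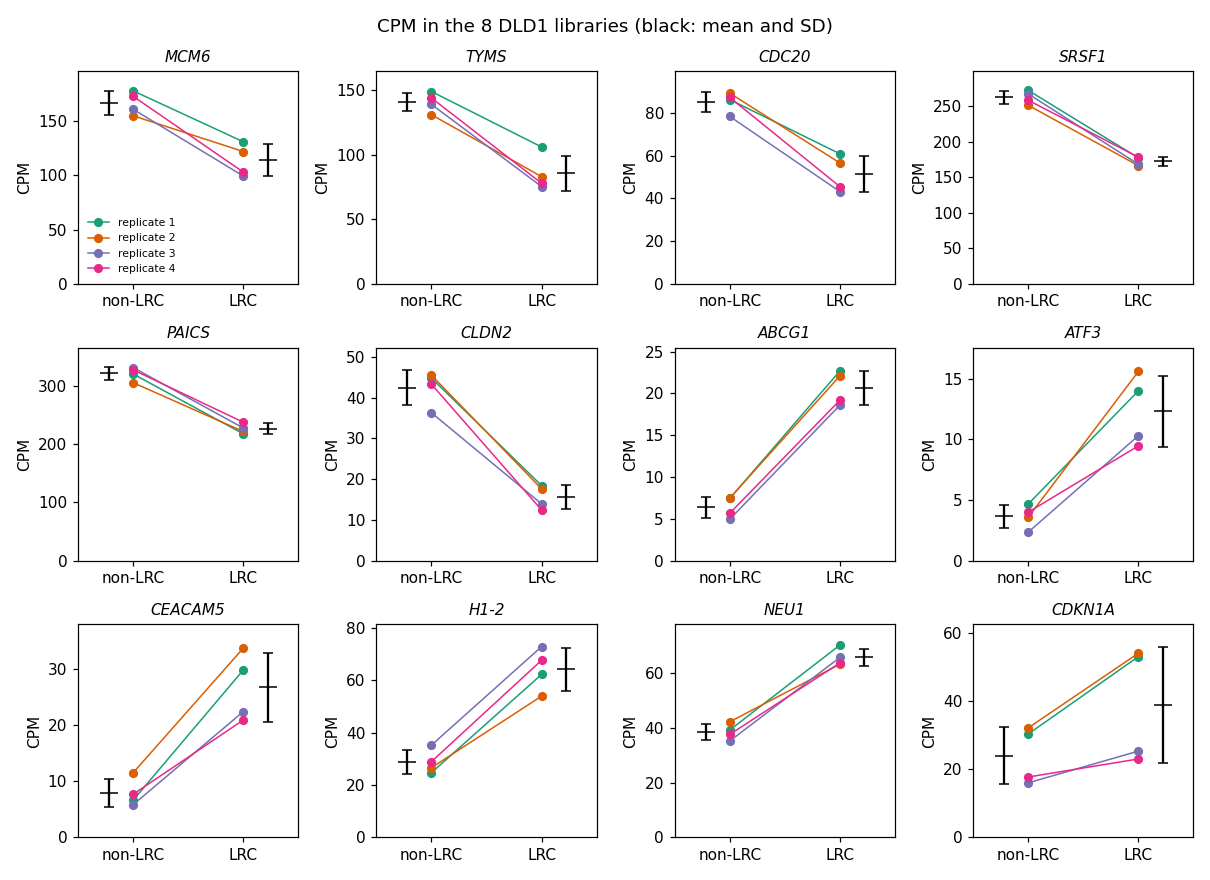
Levels in CPM (y axis, from 0) of 12 genes in the 4 non-LRC and the 4 LRC libraries; points are libraries, coloured lines join libraries of the same replicate number, and black marks give the mean ± SD. MCM6, TYMS and CDC20 are lower in every LRC library than in any non-LRC library, while the CDKN1A values of the groups overlap and each of its lines rises.

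Inhibitors of the cell cycle were called in both directions. Of 20 tested CDK inhibitors and genes of cell cycle exit, 3 were called higher and 1 lower, with a median of 0.05, and 6 and 4 with the replicate block. The block called 17.1% of all genes higher and 16.6% lower. The called counts depended on single libraries: 1 higher gene remained without non-LRC replicate 1, 3 or 4 or without LRC replicate 2, and the lower call was gone without non-LRC replicate 1 or LRC replicate 1 or 3 and became 2 without non-LRC replicate 4 or LRC replicate 2. CDKN2B, the CDK4/6 inhibitor p15, rose most among called genes whose groups did not overlap and whose mean log2 CPM was 1 or more. Its level was 1.89, 3.57, 1.14 and 1.44 CPM in non-LRCs and 8.08, 9.4, 6.23 and 5.6 CPM in LRCs (log2 fold change 1.86, SE 0.30, adjusted p = 0.00388; chromosome 9, GRCh37, 22002902 to 22009304). CDKN1A, the p53-induced inhibitor p21, was at 30.3, 32.1, 16 and 17.7 CPM in non-LRCs and 53, 54, 25.3 and 23 CPM in LRCs. Each LRC value was above the non-LRC value of its own number, but replicates 3 and 4 lay below replicates 1 and 2 in both populations and the groups overlapped. Its log2 fold change of 0.69 gave an adjusted p of 0.16 with edgeR's quasi-likelihood test and 8.09e-08 with the replicate block. CDKN1B (p27; 0.11, adjusted p = 0.303) and RBL2 (p130; 0.00, adjusted p = 0.988), known for their part in quiescence, did not pass the test either way.

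Several histone genes were called higher in LRCs. Of 11 tested linker and polyadenylated histone genes, 6 were called higher and 1 lower, with a median of 0.64, and 4 had fitted values below 0. The median was 0.64 within replicates 1 and 2 and 0.65 within replicates 3 and 4. The lower call was gone without non-LRC replicate 1 or 2 or LRC replicate 3 or 4. H1-2, a linker histone, was at 24.7, 26.6, 35.2 and 28.9 CPM in non-LRCs and 62.2, 53.9, 72.8 and 67.6 CPM in LRCs. The lowest LRC was well above the highest non-LRC (log2 fold change 1.15, SE 0.12, adjusted p = 0.00059). H2BC4 rose by 1.46 on the log2 scale, H2BC5 and H2AC6 by 1.13 each and H2BC21 by 1.06. Core histone genes have near-identical copies, so how reads were divided among them is uncertain. Of 20 p53 targets 3 were called higher and none lower, with a median of 0.01, and 5 and 1 with the replicate block. GDF15, a stress-induced cytokine, rose from 76.3 to 83.6 CPM to 115 to 138 CPM (log2 fold change 0.72, adjusted p = 0.000319), and SESN2 by 0.71.

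**Figure D3:**
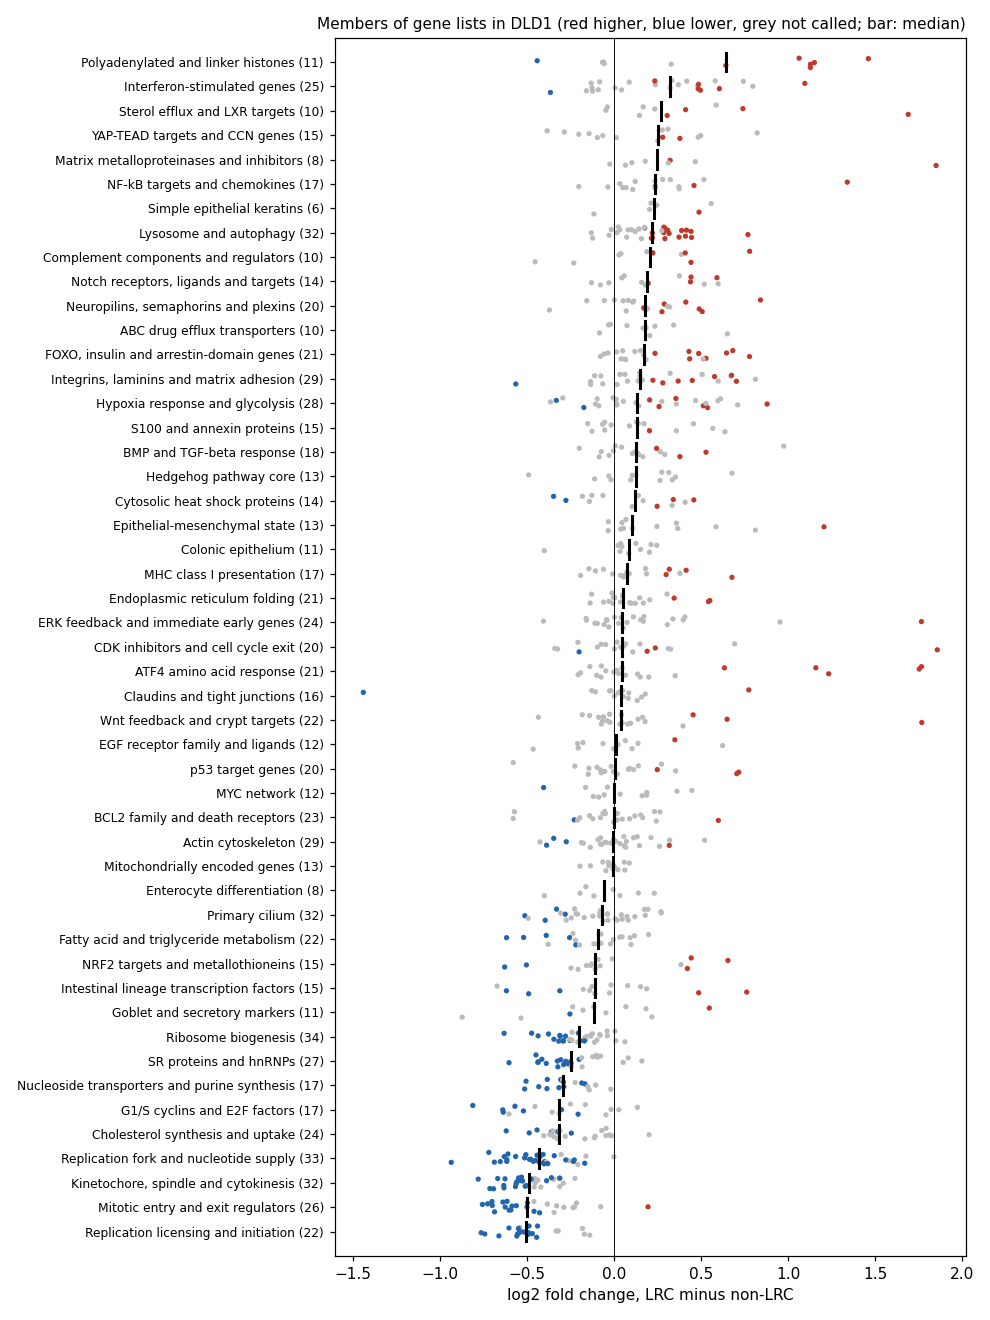
Log2 fold change of LRCs against non-LRCs (x axis) for each tested member of 49 gene lists (rows); red points were called higher, blue lower and grey points not called, and the bar is the list's median. The medians of the lists of replication, mitosis, purine synthesis and splicing factors lie left of 0 and those of the lysosome and histone lists right of 0. Most lists, the histone list among them, have members on both sides.

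Many genes of purine synthesis, ribosome production and splicing were called lower. Of 17 tested nucleoside transporters and enzymes of purine and pyrimidine supply, 11 were called lower and none higher (median -0.29), and all 17 had fitted values below 0. The count was 6 without non-LRC replicate 1. PAICS, an enzyme of purine synthesis, was at 321, 306, 332 and 328 CPM in non-LRCs and 218, 222, 228 and 238 CPM in LRCs (log2 fold change -0.51, SE 0.049, adjusted p = 0.000479). The replicates of each group lay within a narrow band, and the bands were far apart. CTPS1, which makes CTP, fell by 0.51 on the log2 scale and GART, another purine enzyme, by 0.39.

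Of 34 ribosome biogenesis genes, 15 were called lower and none higher (median -0.20), 9 without non-LRC replicate 1 and 25 with the replicate block. FBL, the rRNA methyltransferase fibrillarin, went from 128 to 136 CPM to 87.5 to 104 CPM (log2 fold change -0.44, adjusted p = 0.00154). Of 27 SR proteins and hnRNPs, 17 were called lower and none higher (median -0.25), and unlike the replication lists their median differed little between replicates 1 and 2 (-0.24) and replicates 3 and 4 (-0.25). SRSF1, a splicing factor (chromosome 17, GRCh37, 56078280 to 56084707), was at 272, 251, 267 and 258 CPM in non-LRCs and 177, 166, 168 and 178 CPM in LRCs. The highest LRC was well below the lowest non-LRC (log2 fold change -0.60, SE 0.048, adjusted p = 0.000254). HNRNPA3 fell by 0.45 on the log2 scale, SRSF3 by 0.44 and HNRNPA2B1 by 0.39. MYC, which drives ribosome production and growth, was the single called gene of the 12 in its network, at -0.41 (adjusted p = 0.0188). Its call was lost without non-LRC replicate 3 (adjusted p = 0.0557), non-LRC replicate 4 (0.0533) or LRC replicate 1 (0.0503). The network counted 2 higher genes without non-LRC replicate 2, 1 without LRC replicate 2, and 5 higher and 1 lower with the replicate block. None of the 13 mitochondrially encoded genes was called (median -0.01; 2 lower with the replicate block).

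Sterol genes were called in part. Of 24 tested genes of cholesterol synthesis and uptake, 6 were called lower and none higher (median -0.32), and 16 lower and 1 higher with the replicate block. The lower count was 3 without non-LRC replicate 1 or 2 or LRC replicate 3 or 4. LSS, the lanosterol synthase, fell by 0.32 on the log2 scale (adjusted p = 0.00228) and SQLE, the squalene epoxidase, by 0.44.

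ABCG1, which exports cholesterol and is a target of the sterol sensor LXR, was among the most regular changes of the comparison. It lies on chromosome 21 (GRCh37, 43619799 to 43717354), and its level was 7.43, 7.48, 4.96 and 5.67 CPM in non-LRCs and 22.7, 22.1, 18.6 and 19.2 CPM in LRCs. The lowest LRC was more than 10 CPM above the highest non-LRC (log2 fold change 1.69, SE 0.14, adjusted p = 0.000254). Of the 10 tested genes of sterol efflux and LXR, 4 were called higher and none lower (median 0.27). That count was 1 without non-LRC replicate 1, and 2 without non-LRC replicate 3 or 4 or LRC replicate 1, 3 or 4. Of 22 genes of fatty acid and triglyceride metabolism, 5 were called lower and none higher (8 and 2 with the replicate block), and 3 were lower without non-LRC replicate 1 or 2 or LRC replicate 3 or 4. They included CPT1A, which carries fatty acids into mitochondria (-0.39), and the fatty acid binding protein FABP5 (-0.52).

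Many lysosomal genes were called higher. Of 32 tested lysosome and autophagy genes, 17 were called higher and none lower (median 0.22), and 4 had fitted values below 0. The higher count was 10 without non-LRC replicate 3. NEU1, the lysosomal sialidase, was at 39.2, 42.2, 35.2 and 37.6 CPM in non-LRCs and 70.2, 63.2, 65.7 and 63.7 CPM in LRCs (log2 fold change 0.77, SE 0.065, adjusted p = 0.000277). The autophagy receptor SQSTM1 rose by 0.44 on the log2 scale, PSAP, the precursor of the saposins, by 0.45 and progranulin (GRN) by 0.42. CD68, the macrophage marker that is also lysosomal, was at 1.6 to 5.73 CPM in non-LRCs and 3.99 to 14.3 CPM in LRCs, with overlap, and did not pass the test (adjusted p = 0.0515) but passed with the replicate block (2.99e-08). The other immune markers were at or near 0 in both groups. Iron storage genes were higher too, FTH1 by 0.44 and FTL by 0.42, although reads of both can be shared with their many pseudogenes.

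Stress responses changed in part. Of 21 tested genes of the ATF4 amino acid response, 5 were called higher and none lower (median 0.05), and 8 and 3 with the replicate block. Without LRC replicate 2 there was 1 lower. ATF3, a stress-induced repressor (chromosome 1, GRCh37, 212738676 to 212794119), was at 4.66, 3.57, 2.34 and 3.99 CPM in non-LRCs and 14, 15.6, 10.3 and 9.46 CPM in LRCs. The groups were far apart (log2 fold change 1.77, SE 0.22, adjusted p = 0.00127). DDIT3, the stress factor CHOP, rose by 1.23 on the log2 scale, and SLC3A2, the shared chain of several amino acid transporters, by 0.63 from 295 to 336 CPM to 462 to 522 CPM. ASNS, the asparagine synthetase, did not pass the test (0.20, adjusted p = 0.622; 0.00344 with the replicate block). Of 21 endoplasmic reticulum folding genes 3 were called higher, among them HERPUD1 (0.54) and the chaperone HSPA5 (0.35), and 8 higher and 2 lower with the replicate block.

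Of 14 heat shock genes, 3 were called higher, with HSPB1 at 0.34, and 2 lower. The lower genes were the mitochondrial partners HSPD1 (-0.28) and HSPE1 (-0.35), so no cytosolic member was called lower. These counts were 6 and 5 with the replicate block. Of 28 genes of hypoxia and glycolysis 6 were called higher and 2 lower (median 0.13), and 15 and 5 with the replicate block. The higher count was 3 without non-LRC replicate 1, and the lower count was 1 without non-LRC replicate 1, 3 or 4 or LRC replicate 3 or 4. NDRG1 rose by 0.54 and the glucose transporter SLC2A3 by 0.88, while the glycolytic enzyme ENO1 fell by 0.33. VEGFA, the angiogenic factor, did not pass without the replicate block (0.47, adjusted p = 0.189) and passed with it (2.08e-07). Of 21 FOXO, insulin and arrestin-domain genes 8 were called higher and none lower (median 0.17), with SESN3 at 0.68, IRS2 at 0.53 and BCL6 at 0.43.

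Surface and adhesion genes held several of the largest rises. CEACAM5, the carcinoembryonic antigen (chromosome 19, GRCh37, 42212504 to 42234353), was at 6.62, 11.5, 5.83 and 7.67 CPM in non-LRCs and 29.8, 33.7, 22.4 and 20.9 CPM in LRCs. No LRC value came near the non-LRC range (log2 fold change 1.76, SE 0.21, adjusted p = 0.00122). CEACAM6 was at 0.405 to 1.68 CPM in non-LRCs and 3.53 to 4.85 CPM in LRCs. CEACAM genes share long stretches of sequence, so the split of reads between them is uncertain.

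The stratified keratins KRT4, KRT13 and KRT16 passed the filter on low counts only through the LRCs, so their values are given without a test. KRT13 was at 0.067 to 0.404 CPM in non-LRCs and 0.84 to 1.23 CPM in LRCs, KRT16 at 0.0675 to 0.808 and 0.987 to 2.25 CPM, and KRT4 at 0 to 0.402 and 0.7 to 1.4 CPM. MMP1, the interstitial collagenase, stayed under the filter and was at 0 in all non-LRCs and at 1.62, 1.09, 0.35 and 0.165 CPM in LRCs. These levels are low and rest on few reads a library. Among the 6 simple epithelial keratins tested 1 was called higher, KRT80 at 0.49, and 5 with the replicate block. Leaving out non-LRC replicate 2 also took that count to 5.

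MMP14, a membrane-bound matrix metalloproteinase (chromosome 14, GRCh37, 23305769 to 23318250), was at 2.09, 2.02, 1.34 and 0.559 CPM in non-LRCs and 5.51, 4.7, 5.95 and 6.01 CPM in LRCs (log2 fold change 1.85, SE 0.28, adjusted p = 0.00256). Of 29 integrins, laminins and matrix adhesion genes 7 were called higher and 1 lower (median 0.15), and 13 and 3 with the replicate block. They included the 3 laminin chains LAMB3, at 325 to 368 CPM in non-LRCs and 512 to 610 CPM in LRCs (log2 fold change 0.70), LAMA3 (0.68) and LAMB2 (0.45). The lower call was gone without non-LRC replicate 1 or 3 or LRC replicate 3. THBS1, the matrix protein thrombospondin 1, rose by 0.58. In the opposite direction went the cytoplasmic actins ACTB (-0.39) and ACTG1 (-0.35), whose sequences are nearly the same. They belong to a list of 29 tested actin cytoskeleton genes, of which 1 was called higher and 3 lower (median -0.004). With the replicate block 6 were higher and 6 lower, beside 17.1% and 16.6% of all genes. The higher call was gone without non-LRC replicate 1, 3 or 4 or any LRC library.

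CLDN2, the pore-forming claudin of leaky epithelia, fell most among called genes whose groups did not overlap and whose mean log2 CPM was 1 or more. It lies on chromosome X (GRCh37, 106143394 to 106174091), and its level was 44.8, 45.5, 36.3 and 43.3 CPM in non-LRCs and 18.4, 17.6, 13.9 and 12.4 CPM in LRCs. The groups did not overlap (log2 fold change -1.44, SE 0.12, adjusted p = 0.000279). NOX1, the NADPH oxidase of colonic epithelium, was next in that order with 9.27 to 12 CPM in non-LRCs and 4.48 to 6.76 CPM in LRCs (log2 fold change -0.995, adjusted p = 0.00238). Of the 16 claudins and tight junction genes 1 was called higher, CLDN1, which lost its call without non-LRC replicate 1 (adjusted p = 0.0569), and CLDN2 was the 1 called lower. The replicate block gave 3 higher and 2 lower, beside 17.1% and 16.6% of all genes.

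Differentiation genes gave no common picture. None of the 8 tested enterocyte genes (of 24) was called, with KRT20 at -0.12 (adjusted p = 0.332) and VIL1 at -0.40 (adjusted p = 0.0821; 7.05e-07 with the replicate block). The replicate block gave 1 higher and 3 lower, and 1 was lower without non-LRC replicate 2 or LRC replicate 4. Of 15 intestinal lineage transcription factors 2 were called higher and 3 lower, and 3 and 6 with the replicate block. ELF3, an epithelial factor, was at 43.4 to 52.9 CPM in non-LRCs and 77.9 to 86.5 CPM in LRCs (log2 fold change 0.76, adjusted p = 0.000279), while HNF4A fell by 0.31 and ISX by 0.49. Of 11 goblet and secretory markers MUC20 rose by 0.55 and AGR2 fell by 0.25, and with the replicate block 2 were higher and 4 lower. The lower count was 2 without replicate 2 of either population.

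Of 22 Wnt feedback and crypt target genes 3 were called higher and none lower (median 0.04), and 6 and 3 with the replicate block. They were PROM1, NOTUM and PTK7. PROM1, the surface marker CD133, was at 3.11, 2.42, 2.34 and 3.12 CPM in non-LRCs and 5, 6.74, 13.7 and 12 CPM in LRCs (log2 fold change 1.77, SE 0.31, adjusted p = 0.00529), so the LRCs of replicates 3 and 4 held most of the rise. NOTUM, a Wnt deacylase, was at 8.24 to 8.89 CPM in non-LRCs and 12.7 to 14.5 CPM in LRCs (log2 fold change 0.65). AXIN2, a general Wnt target, did not pass the test (-0.04, adjusted p = 0.873), and the stem cell marker LGR5 did not pass without the replicate block (-0.43, adjusted p = 0.128) and passed with it (2.22e-06). LGR5 was at 47.1, 37.9, 61.9 and 54.5 CPM in non-LRCs and 31, 27.8, 46.8 and 43.5 CPM in LRCs, lower in each pair though the groups overlapped.

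Of 14 Notch genes 4 were called higher and none lower (median 0.19), 2 without non-LRC replicate 3 or 4 or LRC replicate 4 and 7 with the replicate block. The receptor NOTCH3 was at 66.4 to 69.3 CPM in non-LRCs and 87.7 to 96.3 CPM in LRCs (log2 fold change 0.44, adjusted p = 0.00059), and HES1, a Notch target, rose by 0.44. Of the 18 Hedgehog pathway genes 13 passed the filter and none was called, with 2 higher with the replicate block and 1 higher without non-LRC replicate 4. The receptor PTCH1, itself a target of the pathway, had a log2 fold change of 0.26 (adjusted p = 0.0539; 8.34e-05 with the replicate block), and the effector GLI1 was under 1 CPM in every library. Of 20 neuropilins, semaphorins and plexins 7 were called higher and none lower (median 0.18), 4 without non-LRC replicate 1 or LRC replicate 3. They included PLXNA3 (0.51), the coreceptor NRP1 (0.49) and SEMA3B (0.41).

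Immune-related surface and interferon genes rose in part. Of 25 interferon-stimulated genes 6 were called higher and 1 lower (median 0.32), and 12 and 3 with the replicate block. IFIT1 rose by 1.096 on the log2 scale and ISG15 by 0.49, while OAS3 fell by 0.37. Of 17 genes of MHC class I presentation 4 were called higher and none lower (median 0.07), and 7 and 2 with the replicate block. There were 2 higher without non-LRC replicate 3 or 4 or LRC replicate 1, and 1 lower without LRC replicate 2. HLA-B went from 41.2 to 54.7 CPM to 73.7 to 82.2 CPM (log2 fold change 0.68), with reads that HLA genes can share. Of 10 complement genes 4 were called higher, 2 without non-LRC replicate 1 or 3, and none lower, 1 without non-LRC replicate 2 or LRC replicate 4 and 2 with the replicate block. CLU, the chaperone clusterin, was at 118 to 203 CPM in non-LRCs and 256 to 298 CPM in LRCs (log2 fold change 0.78). None of 10 ABC drug efflux transporters was called, and 3 were called higher with the replicate block. Of 23 genes of the BCL2 family and death receptors BMF, a pro-apoptotic member, rose by 0.60, the 1 higher call among them. In the blocked fit 4 were higher and 4 lower, close to the shares of all genes in that fit (17.1% and 16.6%). There were 2 higher without non-LRC replicate 2 or 3.

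Of 12 EGF receptor family genes and ligands the ligand TGFA alone was called higher (0.35), EGFR did not pass the test (0.02, adjusted p = 0.912), and the ligand EREG did not pass without the replicate block (-0.47, adjusted p = 0.109) and passed with it (6.35e-09). In the blocked fit 3 were higher and 2 lower, beside 17.1% and 16.6% of all genes, and 1 was lower without LRC replicate 2. Of 24 ERK feedback and immediate early genes ATF3 alone was called, and 8 were called higher and 4 lower with the replicate block. The counts were 3 higher without non-LRC replicate 2 and 2 without LRC replicate 4. Many of these genes differed more between replicates than between populations. DUSP6, a feedback phosphatase, was at 229, 362, 137 and 126 CPM in non-LRCs and 247, 325, 108 and 110 CPM in LRCs (log2 fold change -0.11, adjusted p = 0.883, and 0.0433 with the replicate block).

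The remaining lists stand beside 6.67% of all genes called higher and 7.89% lower, or 17.1% and 16.6% with the replicate block. Of 15 NRF2 targets and metallothioneins 3 were called higher and 2 lower, of 18 BMP and TGF-beta response genes 3 higher and none lower, and of 17 NF-kB targets and chemokines 3 higher and none lower. These counts were 4 and 6, 8 and 1, and 7 and 0 with the replicate block. The lower NRF2 count was 1 without non-LRC replicate 1 or LRC replicate 3 or 4. BAMBI, a decoy receptor of BMP signalling, rose by 0.53 on the log2 scale, and ICAM1, an adhesion molecule induced by NF-kB, by 0.46. Of 32 genes of the primary cilium 4 were called lower and none higher, a count that was 0 without non-LRC replicate 1, 1 without non-LRC replicate 3 or LRC replicate 3, and 2 without non-LRC replicate 2 or LRC replicate 4. With the replicate block 7 cilium genes were lower and 2 higher, and 1 was higher without LRC replicate 1.

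**Figure D4:**
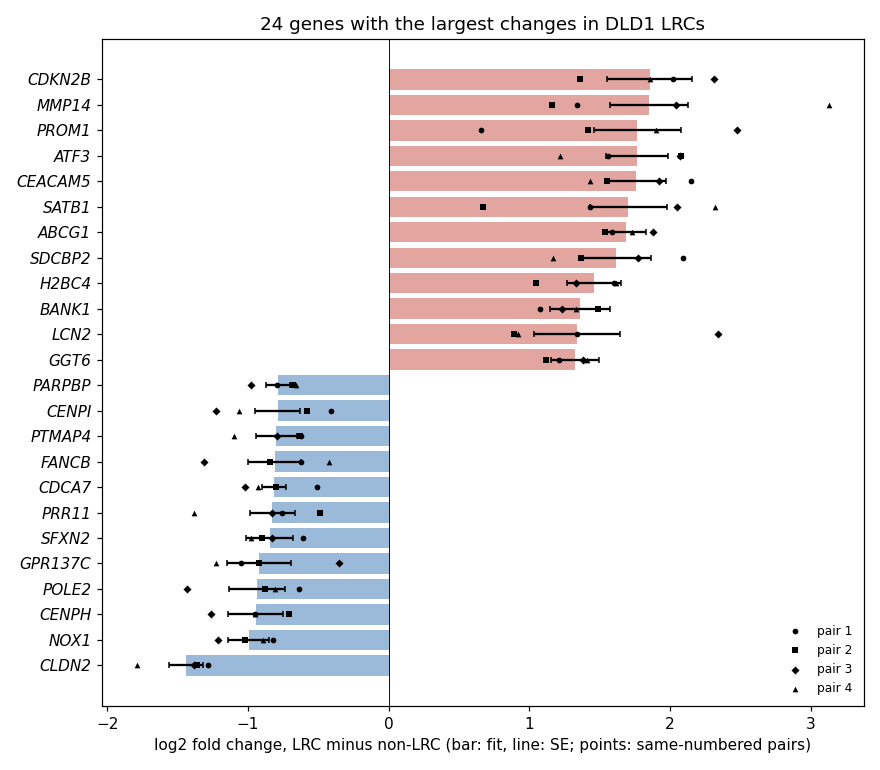
Log2 fold change of LRCs against non-LRCs (x axis) for the 12 highest and the 12 lowest called genes whose groups did not overlap and whose mean log2 CPM was 1 or more; the bar is the fitted value, the line its standard error, and the points are the 4 same-numbered pairs. All 4 pairs of CLDN2 lie below 0, and the pairs of PROM1 spread from 0.66 to 2.48.

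The LRC effect in DLD1 was then compared with the mean effect in the other 5 lines, to ask which changes differed by line. Of 16603 genes tested over the 48 sorted libraries, 22 differed (0.133%), 10 of them higher in DLD1 and 12 lower. With the replicate block 420 differed (2.53%), 115 higher and 305 lower. The count was 10 without non-LRC replicate 1, LRC replicate 3 or LRC replicate 4 of DLD1 and 14 without non-LRC replicate 4. MMP14 differed most among the higher genes: its effect was 1.83 in DLD1 and between -0.20 and 0.47 in the others (difference 1.72, SE 0.18, adjusted p = 9.01e-08). SATB1, a chromatin organiser, had an effect of 1.68 in DLD1 and of -0.20 to 0.59 elsewhere (difference 1.56, adjusted p = 1.68e-06). Both genes were at lower levels in DLD1 than in any other line. MMP14 had means of 1.51 CPM in DLD1 non-LRCs and 5.54 CPM in LRCs, and of 30.1 to 83.4 CPM in the other lines. SATB1 had means of 2.13 and 7.01 CPM in DLD1, and of 7.48 to 149 CPM in the other lines. CLDN2 had an effect of -1.46 in DLD1, 1.53 in HT55, 1.49 in RKO, -0.10 in SW948, -0.57 in SW48 and -0.77 in HCT15 (difference -1.78, adjusted p = 0.0441). Its mean level was 0.242 CPM in HT55 and 0.666 CPM in RKO. Some lower differences came with a large rise in a single other line: GRHL3 had an effect of -0.10 in DLD1 and 6.86 in RKO, and MAL2 of -0.21 in DLD1 and 3.95 in RKO.

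No gene of the replication and mitosis lists was among the 22. With the replicate block 8 of 22 licensing and 8 of 33 fork genes were lower in DLD1 than in the other lines' mean. So were 6 of 26 mitotic regulators and 5 of 32 kinetochore and spindle genes, beside 305 of all 16603 genes tested. In this fit over 6 lines the median effect of the licensing genes was -0.52 in DLD1, -0.69 in RKO and -0.42 in SW48, but 0.06 in HT55, -0.02 in SW948 and 0.12 in HCT15. Mitotic regulators had medians of -0.52 in DLD1, -0.60 in RKO and in SW48, and 0.36 in HCT15. FAS, a p53 target and death receptor, differed between lines (difference -1.07, adjusted p = 0.0467). Its effect was -0.60 in DLD1, -0.26 in HT55, 0.01 in SW948, 0.43 in HCT15, 1.18 in RKO and 0.97 in SW48. In DLD1 its groups overlapped, at 7.64 to 12.5 CPM in non-LRCs and 4.83 to 8.67 CPM in LRCs. With the replicate block 10 of the 21 matched p53 targets were lower in DLD1 than in the mean of the others, beside the same 305 of 16603.

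The dye itself was tested in the unsorted libraries labelled DLD1, which share no sample with the sorted comparison and, as described above, resembled HCT15. CFSE against DMSO gave 3162 of 14518 genes at day 1 (21.8%) and 745 at day 5 (5.13%). The day 5 count rested on few libraries: it was 0 without CFSE replicate 1 or 2 (2378 and 2398 genes at an unadjusted p under 0.05), 1 without DMSO replicate 1, 16 without DMSO replicate 4 and 122 without DMSO replicate 3, while DESeq2 on all libraries called 1521. At day 1 it was 1358 and 1424 without CFSE replicate 1 and 2.

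Of the 1943 genes called between LRCs and non-LRCs that were also tested in the control libraries, 286 were called for the dye at day 5, which is 14.7% of the former, beside 5.45% of all genes tested in both, and 39.7% of the 721 dye calls. Of these 286, 278 had opposite directions and 8 the same. The opposite genes were 216 lower in LRCs and higher with the dye, and 62 the other way. The sign of the dye effect stayed as it was in 277 or 278 of the 278 with each control library left out. These genes were chosen by their calls on the same libraries, so their signs could hardly change and do not measure how steady the effect is. At day 1 505 genes were shared, 26% of the LRC calls beside 22.5% of all genes tested in both, 257 in the same and 248 in opposite directions. The licensing genes show the day 5 pattern: 20 of them were higher with the dye (median 0.86) and none lower, while their median at day 1 was 0.03. Cholesterol genes were lower with the dye at day 1, 21 of 24 with a median of -1.03, and none was called at day 5. ATF3 was not called for the dye at either day, with an effect of 2.11 at day 1 (adjusted p = 0.0535) and 1.20 at day 5 (adjusted p = 0.388).

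**Figure D5:**
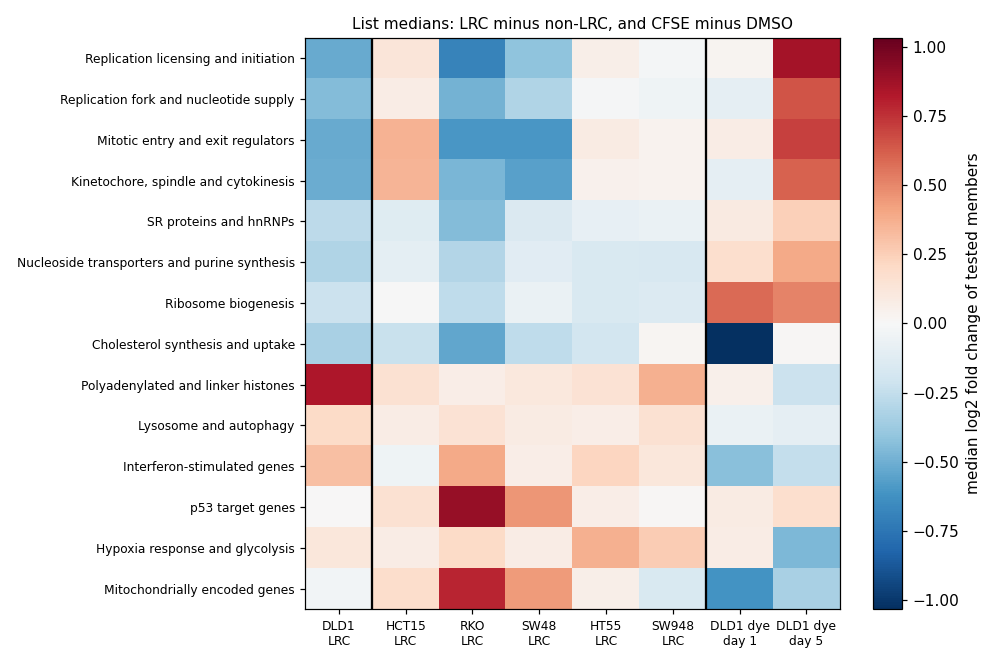
Median log2 effect (colour) of 14 gene lists in rows; the columns are the LRC effect in DLD1, HCT15, RKO, SW48, HT55 and SW948 and the dye effect in unsorted libraries at days 1 and 5. Licensing genes are at -0.52 in DLD1 and -0.69 in RKO, near 0 in HT55 and SW948, and at 0.86 for the dye at day 5.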

How the data were processed

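RNA of 64 samples was sequenced as 50 bp single-end reads, and the authors deposited raw read counts per Ensembl gene (54127 genes), per the labels on hg19 with TopHat, HTSeq and DESeq among the tools, versions not given. The annotation and the strand setting of the counting are not given in the sources used here. Lines for unassigned reads were left out. Symbols were found for 39260 genes and positions for 47098 in GENCODE 44 lifted to GRCh37. Counts were tested with edgeR 4.0.16 (TMM, quasi-likelihood, Benjamini-Hochberg; R 4.3.3) after dropping genes that did not reach 10 counts in 4 or more of the libraries compared, and with DESeq2 1.42.0 as an alternative. All adjusted p-values are over all genes tested, from edgeR unless named otherwise. Levels are CPM, and log2 CPM used a prior count of 2. SE is the fold change divided by the square root of F. The test was tried on simulated counts.

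Groups and replicate numbers came from the labels, and the study's methods call the 4 replicates biological. Samples of the same number were taken as pairs. Deviations from the group means correlated at 0.255, 0.504, 0.339 and 0.314 in same-numbered LRCs and non-LRCs, and at a mean of -0.118 (-0.419 to 0.371) in others. The highest value in others was above those of same-numbered replicates 1, 3 and 4, so the pairing rests on the labels. The comparison between lines used a contrast of DLD1 against the mean of 5 lines in one fit, and dye effects were fitted within the 16 unsorted libraries. Alternatives were other normalizations and filters, the replicate block, a fit of all 48 sorted libraries, and leaving out each library. The members and the 54 gene lists were chosen with earlier results of these data known, and 1064 of 1079 list symbols were matched, 914 of them tested. Named genes were the 12 highest and 12 lowest called genes whose groups did not overlap and whose mean log2 CPM was 1 or more, up to 4 called genes with the smallest p per list, genes set for each list whatever they did, and 6 per direction between lines. A few genes that this rule names are not reported here. FZR1, CD68, CD3E, MS4A1, CDH5 and KDR were named after their values were seen. Correlations between libraries of different lines were added after seeing the data. At 12237225 or more reads a library, a gene under 1 CPM rests on few reads, and intervals of counting error do not cover the spread between cultures.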

Additional observations from a re-analysis of the deposited data

Results flagged for a closer look

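Among 129 genes named and 5 library measures, 268 groups of 4 libraries were examined for a single library far from the others, and 8 had one (2.99%); chance gives about 1 in 20. These libraries were LRC replicate 3 for BCL6 (35.2 CPM) and SQSTM1 (570 CPM), LRC replicate 2 for GLI1 (0.545 CPM) and PSAP (1300 CPM), non-LRC replicate 2 for CENPF (164 CPM) and KRT16 (0.808 CPM), and non-LRC replicate 4 for DEF6 (1.84 CPM) and CEACAM6 (1.68 CPM, against 0.405 to 0.472 CPM in the other non-LRCs). In BCL6, SQSTM1, PSAP, CENPF and DEF6 the groups did not overlap with these libraries included, and in GLI1 they did. KRT16 and CEACAM6 rested on few reads in non-LRCs and passed the filter on low counts through the LRCs, so overlap is not judged for them.

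The LRC effect in DLD1 differed from the mean of the other 5 lines, in the test of that difference, for 22 genes. The named ones with a higher effect in DLD1 were MMP14 (difference 1.72 on the log2 scale), SATB1 (1.56), the actin-binding protein DBN1 (1.30), CADPS2 (1.18), ECHDC2 (0.98) and DEF6 (0.88). DBN1 was at 3.51 to 5.05 CPM in DLD1 non-LRCs and 8.3 to 10.9 CPM in LRCs, and its effect in the other lines was between -0.66 and 0.20. Those with a lower effect in DLD1 were GRHL3 (-1.90), CLDN2 (-1.78), the smooth muscle actin ACTA2 (-1.23), FAS (-1.07) and MAL2 (-1.01). In GRHL3, ACTA2 and MAL2 the effect in RKO was 6.86, 2.53 and 3.95, while that in DLD1 was between -0.24 and -0.10.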

How the results depend on the processing

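Of the 1978 genes called between LRCs and non-LRCs, DESeq2 gave 2173, no filter on low counts 2089, 10 counts in every library 1936, no TMM 1831 and RLE size factors 1994. The count was 4591 with the replicate block, 646 when all 48 sorted libraries shared an estimate of spread, and 107 with a log2 fold change of at least 1. Leaving out single libraries gave 963 to 1784. In settings chosen after seeing the data it was 4285 with replicates 1 and 2 against 3 and 4 as a batch term, 3091 in replicates 3 and 4 alone and 0 with each of these pairs summed (2316 at an unadjusted p under 0.05). For DLD1 against the other 5 lines the 22 genes became 75 with DESeq2, 48 with no filter on low counts, 420 with the replicate block and 10 to 20 with single libraries left out. The dye counts ranged from 1358 to 3715 at day 1 and from 0 to 812 at day 5 with single libraries left out, and at day 5 were 1521 with DESeq2 and 1511 with the replicate block. The cause of these moves was not tested. Of the 218 named genes tested, no called gene changed direction under any of these settings, while some uncalled genes with a fold change near 0, such as EGFR, did. The replicate block lost no call among them and added 31, the fit of 48 libraries lost 89 and the summed pairs lost 172. Differences in library shares stayed within the spread between replicates. Depth limits the genes under 1 CPM.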
